A study of Bos taurus with 10 samples.

Results

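Of the 12674 genes in the deposited table, 10 were chosen by symbol for their part in moving and activating long-chain fatty acids: the cytosolic carriers FABP3, FABP4 and FABP5, the membrane proteins CD36, SLC27A1 and SLC27A4, and the acyl-CoA synthetases ACSL1, ACSL3, ACSL4 and ACSL5. The choice was made with earlier results of these data known, so counts of members called describe these genes and are no test of an excess. All 10 were found and all 10 passed the filter on low counts. RNA had been sequenced from intramuscular fat, the marbling between muscle fibres, and from subcutaneous fat, the layer under the skin, with 5 libraries of each. The animals were 5 adult Angus-cross heifers (Bos taurus), with no treatment or genetic change named in the labels, so that the depot is what separates the groups. The 2 depots were set side by side by the study to ask why marbling is laid down later and more slowly.

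Fatty acids reach a fat or muscle cell from the blood, and several protein families share the work of taking them in. CD36 in the plasma membrane and the SLC27A (FATP) proteins promote uptake, the ACSL enzymes attach coenzyme A so that the fatty acid is trapped and can be esterified or burned, and the small FABP proteins carry it through the cytosol. FABP4 is the carrier of adipocytes, which also occurs in capillary endothelium and macrophages, FABP5 is a broader form found in those cells as well, and FABP3 is the carrier of heart and skeletal muscle.

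The depots differed in the level of several of these genes. FABP3, SLC27A1 and ACSL3 were higher in intramuscular fat, FABP4, FABP5 and ACSL5 were lower, and CD36, SLC27A4, ACSL1 and ACSL4 did not pass the test. These 6 of 10 members stand beside 12.2% of all 12521 genes tested, with 6.73% higher and 5.47% lower (843 and 685 genes, or 1144 and 330 with plain library totals), at an adjusted p under 0.05 (quasi-likelihood test of edgeR, Benjamini-Hochberg adjustment over all genes). DESeq2 called 1369 of all genes higher and 1171 lower. At an unadjusted p under 0.05, 1811 of the 12521 were higher and 2033 lower by edgeR. The values of the 2 depots did not overlap for 5 of the 10 members, 3 higher and 2 lower, against 12.9% of all genes (7.85% higher, 5.04% lower). With the replicate block, which compares the depots within each heifer, the members gave the same 3 higher and 3 lower against 15.1% of all genes. The median log2 fold change was -0.63 over the members and -0.04 over all genes tested. Without intramuscular replicates 1 and 3, which held the most muscle transcripts, FABP3 was the sole member past the threshold (1 higher and 0 lower, against 2.93% of all genes, with 3 higher and 3 lower at an unadjusted p under 0.05 by edgeR, the one tool run on those 8 libraries). All 6 kept their direction there, and fewer libraries were tested.

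**Figure D1:**
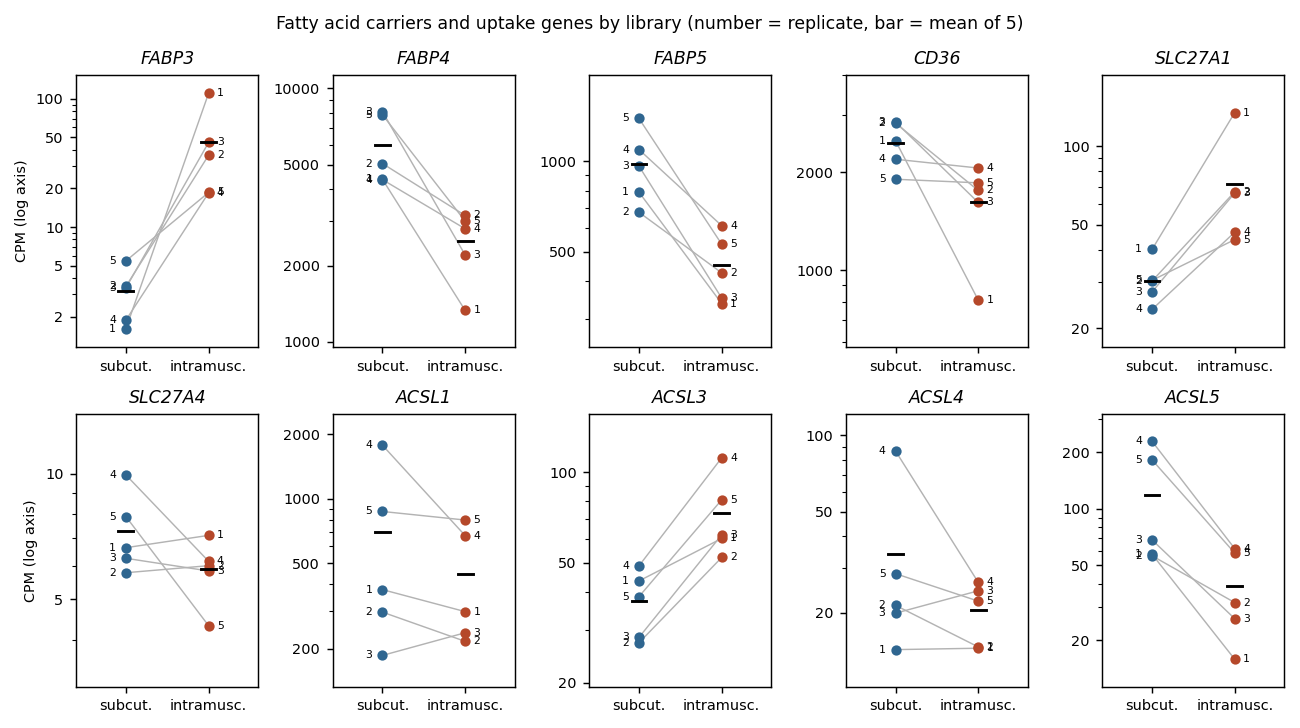
Level of each of the 10 genes in every library, in CPM (counts scaled to 1000000 a library) on a log axis, subcutaneous left and intramuscular right. Points are libraries with their replicate number, grey lines join equal numbers (the same heifer), and black bars are means of 5. FABP3, SLC27A1 and ACSL3 rose along all 5 lines, and FABP4, FABP5, CD36 and ACSL5 were lower at the right end of all 5.

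Libraries held 9392739 to 14836808 counts over the listed genes in intramuscular and 13776094 to 17685678 in subcutaneous fat. Adipocyte genes were present throughout: the 14 tested genes of a mature adipocyte list (ADIPOQ, PLIN1, LEP and others) summed to 7027, 15922, 17517, 25599 and 27575 CPM in the 5 intramuscular libraries, taken in order, and to between 25983 and 44099 CPM in subcutaneous fat, with no gene at 0. Of 71 genes listed as striated muscle markers, 14 had values, and the contractile genes ACTA1, MB, CKM, MYH1 and MYH7 were not analysed here. The 14 summed to 3527, 1022, 1879, 559 and 699 CPM in the same order and to 21.7 to 65.2 CPM in subcutaneous fat, and 13 of them were higher and 0 lower by edgeR (13 higher and 0 lower by DESeq2 too, and 13 and 0 at an unadjusted p under 0.05). In subcutaneous libraries 5 or 6 of the 14 were at 0, and CHRNA1, COX7A1 and SGCA made 86.7 to 93.0% of the list's counts. Several of its genes, NMRK2 among them, were listed because they were already known to be high in these data. In such bulk tissue, fewer cells of a type and less RNA per cell cannot be told apart.

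The muscle carrier FABP3 showed the widest depot difference of the 10 genes (ENSBTAG00000016819, chromosome 2, 122285620 to 122294666, plus strand). Intramuscular replicates 1 to 5 measured 110.2, 36.3, 45.6, 18.4 and 18.6 CPM, and subcutaneous replicates 1 to 5 measured 1.61, 3.45, 3.35, 1.88 and 5.44 CPM. Replicate 1 was the highest intramuscular and at the same time the lowest subcutaneous library, and the lowest intramuscular value was still above the highest subcutaneous one. The means were 45.8 ± 37.8 and 3.15 ± 1.53 CPM (SD, n = 5), with a log2 fold change of 3.81 ± 0.53 (± SE, edgeR adjusted p = 0.000876), or 14.0-fold. The log2 fold change was 3.19 without intramuscular replicate 1 (intramuscular mean 29.7 CPM) and 2.90 without replicates 1 and 3 (edgeR adjusted p = 0.00363). Depth was low on the subcutaneous side, where FABP3 rests on 25 to 80 counts a library.

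FABP3 varied 5.98-fold among the intramuscular libraries, and its order, replicates 1, 3, 2, 5 and 4, was the order of the striated muscle list. For each FABP3 count these libraries held 32.0, 28.2, 41.2, 30.3 and 37.6 counts of that list in replicates 1 to 5. On the log2 scale the ratio of FABP3 to the list was -5.06 ± 0.23 in intramuscular and -3.86 ± 0.74 in subcutaneous fat (SD, n = 5). FABP3 thus kept a nearly fixed proportion to the muscle genes across intramuscular libraries that differed several-fold in both. Subcutaneous fat, where the list is mostly CHRNA1, COX7A1 and SGCA, held 7.28 to 29.2 list counts for each FABP3 count. What muscle fibres in the tissue pieces add to the FABP3 difference was not tested. By a search over all genes tested, the 3 genes whose log2 CPM pattern over the 10 libraries lay nearest to that of FABP3 were KCNJ11, the pore of the ATP-sensitive potassium channel, RSPO2, a secreted enhancer of WNT signalling, and ENHO, which encodes adropin. Their root mean square differences from FABP3 were 0.51, 0.55 and 0.55 log2 units, beside a spread of 1.97 for FABP3 about its own mean.

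**Figure D2:**
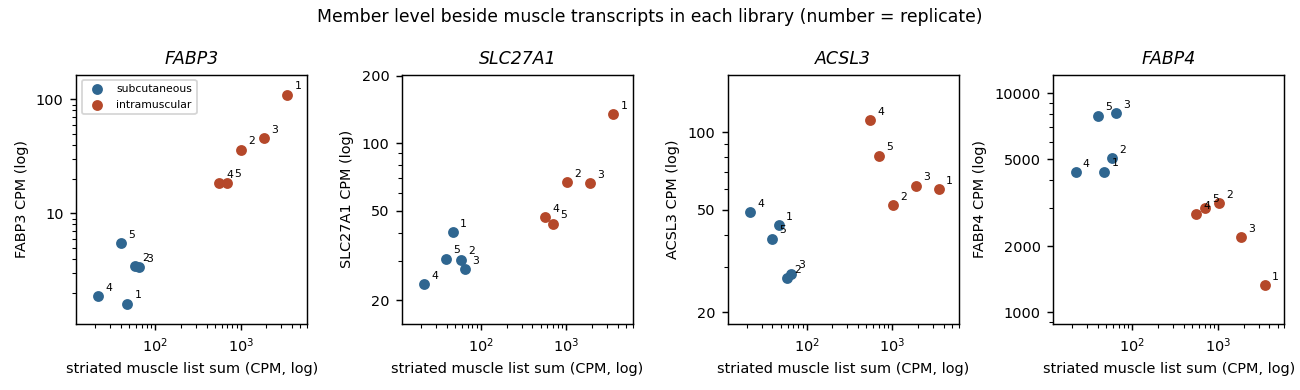
CPM of FABP3, SLC27A1, ACSL3 and FABP4 (vertical, log axis) against the summed CPM of 14 striated muscle genes (horizontal, log axis), 1 point a library with its replicate number, subcutaneous in blue and intramuscular in red. Among intramuscular libraries FABP3 climbed from 18.4 to 110.2 CPM with the list, FABP4 was lowest at the highest sum, and ACSL3 was highest, at 111 CPM, where the list sum was lowest.

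The fat carriers went the other way. FABP4 (ENSBTAG00000037526, chromosome 14, 44676542 to 44681059, minus strand) measured 1332, 3153, 2204, 2795 and 2995 CPM in intramuscular replicates 1 to 5. In subcutaneous replicates 1 to 5 it stood at 4379, 5053, 8094, 4366 and 7866 CPM. Every subcutaneous library lay above every intramuscular one, and intramuscular replicate 1, richest in muscle transcripts, was the lowest. The log2 fold change was -1.25 ± 0.29 (± SE, edgeR adjusted p = 0.0161), a level 2.38-fold lower.

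FABP5 (ENSBTAG00000047330, chromosome 14, 44488895 to 44494877, plus strand) measured 337, 426, 351, 611 and 531 CPM in intramuscular and 790.4, 678, 965, 1096 and 1390.0 CPM in subcutaneous replicates 1 to 5. Again the depots did not overlap. Its log2 fold change was -1.12 ± 0.24 (± SE, edgeR adjusted p = 0.0116), 2.18-fold lower, so both fat carriers fell by a similar factor. Both kept the call with any single library left out. Without intramuscular replicates 1 and 3 FABP4 had a log2 fold change of -1.001 (edgeR adjusted p = 0.0989) and FABP5 of -0.92 (0.106).

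Set against the adipocyte genes of the same library, the fat carriers overlapped between depots. The log2 ratio of FABP4 counts to the summed adipocyte list was -3.20 to -2.34 in intramuscular and -2.67 to -1.88 in subcutaneous libraries. For FABP5 it was -5.70 to -4.38 and -5.26 to -4.66. The make-up of the sum differed between libraries. AGPAT2 and THRSP gave 661 and 972 of 7027 CPM in intramuscular replicate 1. They gave 10682.5 and 9022 of 44099 CPM in subcutaneous replicate 5. The part of adipocyte content in the lower FABP4 and FABP5 was not tested. Of the adipocyte list itself 0 of 14 genes were higher and 1 was lower by edgeR (0 and 4 by DESeq2, 0 and 6 at an unadjusted p under 0.05, and 0 and 5 with the replicate block). Of the 12521 genes tested, 685 were lower by edgeR, 2033 unadjusted and 870 with the block, and DESeq2 called 1171 lower.

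Lists of the other cells that hold FABP4, FABP5 or CD36 were lower in part. Over all genes tested 5.47% were lower by edgeR, and 2033 of 12521 were lower at an unadjusted p under 0.05. For endothelium 5 of 16 genes were lower and 0 higher by edgeR (7 and 0 by DESeq2, 8 and 0 unadjusted), with sums of 2270 to 2881 CPM in intramuscular and 2780 to 5111 CPM in subcutaneous fat. For macrophages 5 of 14 were lower and 0 higher (5 and 0 by DESeq2, 6 and 0 unadjusted), with sums of 208 to 509 and 256 to 1228 CPM. A stromal progenitor list moved likewise, with 4 of 10 lower and 0 higher by edgeR (4 and 0 by DESeq2, 5 and 0 unadjusted) and sums of 4334 to 5634 and 4374 to 11047 CPM. The part of these cells in the lower FABP4 and FABP5 was not tested.

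The nearest patterns to FABP4 were those of MGLL, the lipase that splits monoacylglycerol, AGTRAP, an angiotensin receptor partner, and RBKS, ribokinase, at 0.17, 0.19 and 0.20 log2 units. For FABP5 they were VSIR, an immune checkpoint protein, NAPA, a vesicle fusion factor, and MGST3, a microsomal glutathione transferase, at 0.18, 0.19 and 0.21 log2 units. The 2 carriers shared none of these 3 nearest genes.

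Muscle form and fat form were also compared inside each library, where scaling cancels. For each count of FABP3, intramuscular replicates 1 to 5 held 12.1, 86.9, 48.3, 152 and 161 counts of FABP4. Subcutaneous replicates 1 to 5 held 2714, 1467, 2414.5, 2323 and 1445. The mean log2 ratio of FABP3 to FABP4 was -6.04 ± 1.53 in intramuscular and -10.90 ± 0.41 in subcutaneous fat (SD, n = 5), with no overlap, and the intramuscular mean was -6.65 without replicate 1. Even so the muscle form remained a small part of the carrier pool. Per base of gene length, FABP3 made 1.28 ± 1.57% of the summed FABP3, FABP4, FABP5 and PMP2 level in intramuscular fat, with a highest value of 4.04% in replicate 1 and a mean of 0.588% without it, and 0.0272 ± 0.0084% in subcutaneous fat. FABP4 made 91.6 ± 2.80% and 93.4 ± 1.82% of the pool, and FABP5 7.04 ± 1.55% and 6.57 ± 1.82% (SD, n = 5). These ratios use members chosen with their difference known, so they are given without a test.

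FABP4 and FABP5 lie in a gene cluster on chromosome 14, where RefSeq's ARS-UCD2.0 assembly orders FABP5, PMP2, FABP9, FABP4 and FABP12. Their neighbour PMP2, the fatty acid carrier of myelin (44644660 to 44649977 in the deposited table), went against both, with a log2 fold change of 4.72 ± 0.86 (± SE, edgeR adjusted p = 0.00467). Intramuscular replicates 1 to 5 measured 1.97, 2.57, 3.58, 13.4 and 15.5 CPM. Subcutaneous replicates 1 to 5 had 2, 0, 0, 10 and 0 counts, and a count of 0 allows up to 0.220, 0.186 and 0.204 CPM (3 counts, counting error only). With 3 subcutaneous libraries at 0 the fitted size depends on the method, at 5.34 with a prior count of 0.5, 5.66 by DESeq2 and 6.08 by limma voom. The subcutaneous mean was 0.143 ± 0.254 CPM, or 0.0323 CPM without replicate 4 (log2 fold change 5.44).

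Of the Schwann cell list 6 of 11 genes were higher and 1, S100B, was lower. Its summed level was 520 to 920 CPM in intramuscular and 695 to 1509 CPM in subcutaneous fat, where S100B and PMP22 made 96.1 to 98.8% of it, and the part of nerve in the PMP2 difference was not tested. Other carriers of the family were few. FABP1, FABP2, FABP9 and FABP12 were not analysed here, and the gut form FABP6 and brain form FABP7 had mean levels of 1.45 and 1.89 CPM in intramuscular fat, with edgeR adjusted p of 0.528 and 0.337.

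Among the membrane proteins, the most abundant did not pass the test. CD36 (chromosome 4, 40380301 to 40443336) measured 808, 1759, 1615, 2063 and 1857 CPM in intramuscular and 2505, 2837, 2861, 2196 and 1905 CPM in subcutaneous replicates 1 to 5. It was lower in intramuscular fat in all 5 pairs, with log2 differences of -1.63 in pair 1, -0.09 in pair 4 and -0.04 in pair 5, and the depots overlapped. Its log2 fold change was -0.60 ± 0.25 (± SE, edgeR adjusted p = 0.125, 0.0597 by DESeq2). The log2 ratio of CD36 to the adipocyte list was -3.89 to -3.12 in intramuscular and -4.53 to -3.19 in subcutaneous libraries. The genes nearest to it in pattern were CHRDL1, a BMP antagonist, ESYT1, a membrane-contact protein, and PPARG, the nuclear receptor that directs adipocyte genes, at 0.13, 0.16 and 0.16 log2 units.

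SLC27A1, the FATP of muscle and fat that insulin moves to the membrane, rose (ENSBTAG00000016775, chromosome 7, 5605375 to 5646428, minus strand). It measured 135, 66.9, 66.2, 46.8 and 43.8 CPM in intramuscular and 40.1, 30.3, 27.6, 23.6 and 30.6 CPM in subcutaneous replicates 1 to 5. All intramuscular values lay above all subcutaneous ones, though replicate 5 exceeded the highest subcutaneous value by little. The log2 fold change was 1.23 ± 0.29 (± SE, edgeR adjusted p = 0.0165), 2.35-fold, and 0.78 without intramuscular replicates 1 and 3 (edgeR adjusted p = 0.0822). Within intramuscular fat its proportion to the muscle list was less constant than that of FABP3. The log2 ratios to that list were -4.82 to -3.57 for SLC27A1 and -5.36 to -4.81 for FABP3. The muscle share of the SLC27A1 rise was not tested. SLC27A4, the FATP of gut and skin, measured 4.32 to 7.11 CPM in intramuscular and 5.79 to 9.93 CPM in subcutaneous fat (log2 fold change -0.31 ± 0.25, ± SE, edgeR adjusted p = 0.433), on only 64 to 169 counts a library.

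The liver FATP SLC27A5 also rose, from 5.48 ± 1.22 to 13.8 ± 4.44 CPM (SD, n = 5, log2 fold change 1.30, edgeR adjusted p = 0.00859), and lost the call without intramuscular replicates 1 and 3 (0.0771). Per length, SLC27A1 was the leading FATP in each library and made 55.6 ± 7.74% of the 5 SLC27A genes with values in intramuscular and 40.1 ± 4.66% in subcutaneous fat. SLC27A3, with no called difference in CPM (edgeR adjusted p = 0.240), made 14.7 ± 6.44% and 28.8 ± 5.24% (SD, n = 5).

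The synthetases parted as well. ACSL3, which works at the endoplasmic reticulum and on growing lipid droplets, rose (ENSBTAG00000017258, chromosome 2, 111037664 to 111113602, plus strand). It measured 60.2, 52.1, 61.9, 111 and 80.9 CPM in intramuscular and 43.5, 27.1, 28.2, 48.8 and 38.6 CPM in subcutaneous replicates 1 to 5. The depots did not overlap, and the highest intramuscular levels were in replicates 4 and 5, which held the least muscle transcripts. Replicate 4 was also the highest subcutaneous library, so heifer and muscle content cannot be told apart in this order. The part of muscle fibres in the ACSL3 difference was not tested. The log2 fold change of ACSL3 was 0.97 ± 0.24 (± SE, edgeR adjusted p = 0.0201), 1.96-fold. It was as large without intramuscular replicates 1 and 3, at 1.12, though with an adjusted p of 0.0558. Without subcutaneous replicate 3 it was 0.89, with an edgeR adjusted p of 0.0514. Relative to the adipocyte list the ACSL3 log2 ratio was -8.41 to -6.86 in intramuscular and -10.15 to -9.15 in subcutaneous libraries, again with no overlap.

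ACSL5, an isoform of mitochondria and endoplasmic reticulum abundant in intestine, fell (ENSBTAG00000006707, chromosome 26, 32906517 to 32957882, plus strand). It measured 15.8, 31.7, 26.0, 61.4 and 58.2 CPM in intramuscular and 57.4, 56.3, 68.4, 229 and 182 CPM in subcutaneous replicates 1 to 5. Heifers 4 and 5 had the highest levels in both depots, and their intramuscular values overlapped the lower subcutaneous ones, yet ACSL5 was lower in intramuscular fat in all 5 pairs, with log2 differences of -0.83 to -1.90. The log2 fold change was -1.62 ± 0.47 (± SE, edgeR adjusted p = 0.0422). That call was lost without intramuscular replicate 1, 2 or 3 or subcutaneous replicate 4 or 5 in turn (adjusted p 0.0854 to 0.103, log2 fold changes -1.23 to -1.58) by limma voom (0.0533) and with plain library totals (0.0515, log2 fold change -1.46). Without intramuscular replicates 1 and 3 together it was -1.24 (edgeR adjusted p = 0.227). With the replicate block the standard error fell to 0.18 and the edgeR adjusted p was 0.00126. Its log2 ratio to the adipocyte list was -9.39 to -8.70 and -8.85 to -6.92 in the 2 depots, which overlapped.

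ACSL1, the main synthetase of adipocytes, did not pass the depot test and varied widely within each depot. It measured 298, 216, 237, 674 and 796 CPM in intramuscular and 377, 296, 186, 1779 and 873 CPM in subcutaneous replicates 1 to 5. Heifers 4 and 5 were the highest in both depots. Its log2 fold change was -0.66 ± 0.58 (± SE, edgeR adjusted p = 0.462), and without subcutaneous replicate 4 it turned to 0.04 (subcutaneous mean 433 in place of 702 CPM). The ACSL1 locus (chromosome 27, 15078089 to 15243974) overlaps CENPU on the same and PRIMPOL on the opposite strand, which reached at most 14.3 and 10.6 CPM.

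ACSL4, which prefers arachidonic acid, measured 14.5 to 26.4 CPM in intramuscular and 14.3 to 28.5 CPM in 4 subcutaneous libraries, with replicate 4 at 86.6 CPM. Its log2 fold change was -0.74 ± 0.43 (± SE, edgeR adjusted p = 0.259), or -0.04 without subcutaneous replicate 4. A test of the heifer term, added after these values had been seen, gave edgeR adjusted p of 0.0712 for ACSL5, 0.106 for ACSL1, 0.413 for ACSL4 and 0.459 for ACSL3 in the blocked fit, where 0.112% of all genes passed. The heifer term of these 4 synthetases therefore did not pass the threshold after adjustment. Unadjusted, the edgeR p was 0.000182 for ACSL5, 0.000382 for ACSL1, 0.0135 for ACSL4 and 0.0194 for ACSL3. With the replicate block the standard error of the ACSL1 depot difference was 0.25, beside 0.58 without it.

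The balance of ACSL5 and ACSL3 within the family differed between depots. Per length, ACSL5 made 11.3 ± 3.19% and ACSL3 14.3 ± 3.42% of the 5 ACSL genes in intramuscular fat, and 23.2 ± 6.17% and 5.87 ± 2.94% in subcutaneous fat (SD, n = 5). ACSL1 stayed the largest part at 66.7 ± 7.99% and 63.6 ± 9.34%, and ACSL4 held 6.72 ± 2.75% and 6.62 ± 2.34%. The log2 ratio of ACSL5 to ACSL3 counts was -1.92, -0.71, -1.25, -0.86 and -0.47 in intramuscular and 0.40, 1.05, 1.27, 2.23 and 2.24 in subcutaneous replicates 1 to 5. The 2 depots did not overlap in this ratio. It compares counts of genes of 2716 (ACSL5) and 4374 bases (ACSL3), so its sign is not that of the levels. Per length, ACSL5 was above ACSL3 in all 5 subcutaneous libraries, while in intramuscular fat it was below ACSL3 in replicates 1 and 3, close to it in replicates 2 (15.7% against 16.0%) and 4 (11.7% against 13.2%), and above it in replicate 5 (10.3% against 8.87%). This ratio was picked after both genes had been seen to differ, so no test is given.

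**Figure D3:**
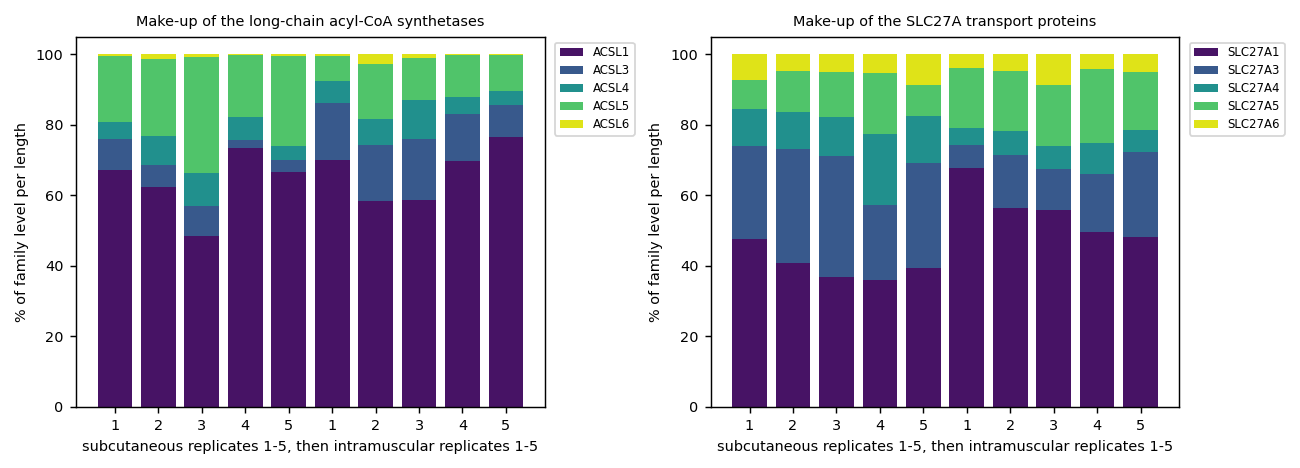
Share of each gene in the level per gene length of its family, in percent, 1 bar a library, for 5 acyl-CoA synthetases (left) and 5 SLC27A transport proteins (right), with subcutaneous replicates 1 to 5 before intramuscular replicates 1 to 5. The ACSL5 share is 17.4 to 32.7% in subcutaneous and 6.84 to 15.7% in intramuscular bars, and SLC27A1 is the largest share in all 10 bars.

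Ranked by level per gene length, scaled to 1 sum in every library, 4 genes led in the same order in both depots. These were FABP4 (7169 ± 2127 in intramuscular and 14682 ± 2774 in subcutaneous fat), CD36 (831 ± 237 and 1128 ± 261), FABP5 (529 ± 123 and 1005 ± 203) and ACSL1 (190.3 ± 110 and 274 ± 275, SD, n = 5). FABP4 stood above 99.9% of the listed genes in intramuscular fat. The ranges of CD36 and FABP5 overlapped in both depots, while FABP4 lay clear of CD36 and FABP5 clear of ACSL1 in both. Below them intramuscular fat had FABP3 (75.0 ± 62.6), SLC27A1 (43.1 ± 22.8), ACSL3 (36.1 ± 10.5), ACSL5 (30.5 ± 15.0), ACSL4 (16.3 ± 4.09) and SLC27A4 (4.71 ± 0.88). The subcutaneous order there was ACSL5 (82.7 ± 58.7), ACSL4 (24.8 ± 23.6), ACSL3 (16.5 ± 5.39), SLC27A1 (16.2 ± 4.47), SLC27A4 (5.16 ± 1.44) and FABP3 (4.31 ± 1.61). Neighbours in these lower orders overlapped in range, other than ACSL4 above SLC27A4 in intramuscular fat and SLC27A1 above SLC27A4 in subcutaneous fat. Without subcutaneous replicate 4, ACSL4 had a subcutaneous mean of 14.2, below ACSL3 (14.8) and SLC27A1 (16.8), and that of ACSL1 was 156. Without intramuscular replicate 1 the intramuscular mean of FABP3 was 48.5. With all libraries FABP3 was at rank 5 of the 10 in intramuscular and at rank 10 in subcutaneous fat.

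**Figure D4:**
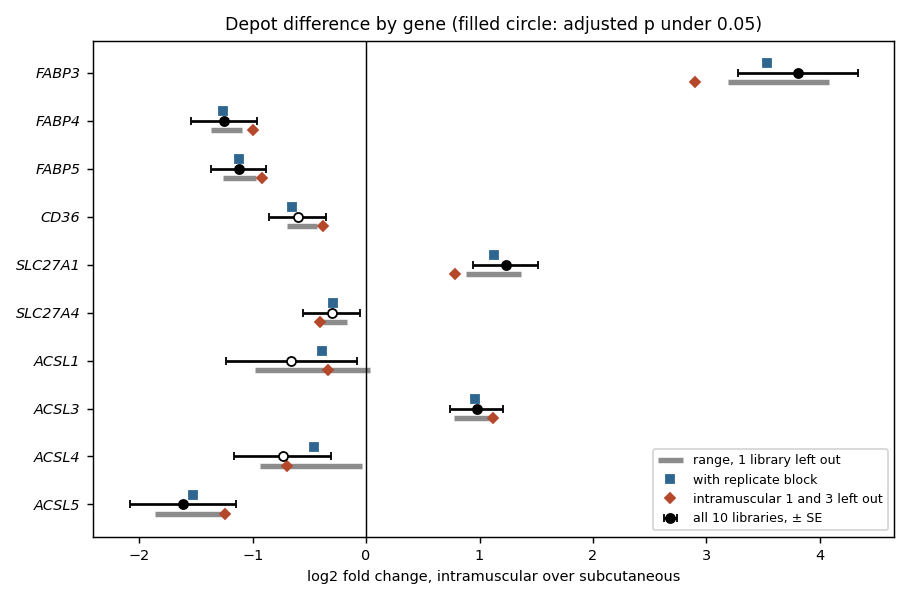
Log2 fold change of each gene, intramuscular over subcutaneous: circles with ± SE for all 10 libraries (filled where the adjusted p is under 0.05), blue squares with the replicate block, grey bars the range with 1 library left out, and red diamonds without intramuscular replicates 1 and 3. FABP3 moves from 3.81 to 2.90 and SLC27A1 from 1.23 to 0.78 without those 2 libraries, while ACSL3 is at 1.12, and the ACSL1 bar reaches 0.04 on the positive side of 0.

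The rest of the uptake, binding and activation machinery gave few calls. Of 65 other genes in 7 lists, 54 were tested, and 3 were higher and 2 lower by edgeR, or 9.26%, near the 12.2% of all genes. By DESeq2 they were 4 and 6, beside 1369 and 1171 of all genes. At an unadjusted p under 0.05 they were 5 and 9, beside 1811 and 2033 of the 12521 genes tested. Besides PMP2 and SLC27A5, the coactivator of mitochondrial genes PPARGC1A was higher (6.96 ± 1.68 against 3.26 ± 1.17 CPM, SD, n = 5, edgeR adjusted p = 0.0491). The liver X receptor NR1H3 was lower (65.6 ± 14.0 against 112 ± 29.9 CPM, edgeR adjusted p = 0.0300). So was ACSBG1, a very-long-chain synthetase (5.95 ± 3.28 against 18.9 ± 10.3 CPM, edgeR adjusted p = 0.0446). With 1 library left out, PPARGC1A kept its call only without subcutaneous replicate 1, and its edgeR adjusted p was highest, at 0.110, without intramuscular replicate 2. For ACSBG1 the call held in 3 of the 10 refits (intramuscular replicate 5 out, or subcutaneous 1 or 2 out), with the highest p, 0.102, without subcutaneous replicate 3. NR1H3 lost it without intramuscular replicate 1, 2 or 3 or subcutaneous replicate 3 or 5, with the highest p, 0.0791, without intramuscular replicate 3.

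**Figure D5:**
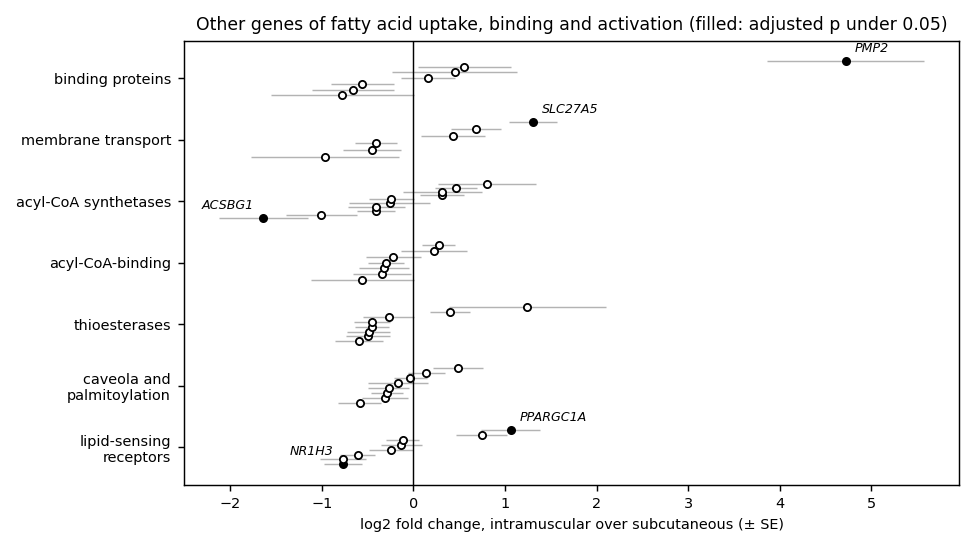
Log2 fold change (± SE), intramuscular over subcutaneous, of 54 other genes in 7 lists, 1 circle a gene, filled where the adjusted p is under 0.05. PMP2 stands apart at 4.72, and the acyl-CoA-binding, thioesterase and caveola rows hold no filled circle.

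Acyl-CoA-binding proteins, which hold the product of the synthetases (DBI and others), had 0 of 7 genes past the threshold by edgeR (0 by DESeq2, 0 unadjusted). The thioesterases that undo the synthetase step had 0 of 8 (0 by DESeq2, 3 lower unadjusted). The caveola and palmitoylation genes that keep CD36 at the membrane had 0 of 8 (1 lower by DESeq2, 1 lower unadjusted), and CAV1 measured 2259 ± 599 against 2719 ± 339 CPM (SD, n = 5). The acetyl-CoA synthetase ACSS2, which feeds acetate into fat synthesis in ruminants, measured 2377 ± 1317 against 4773 ± 1120 CPM (edgeR adjusted p = 0.104, 0.0315 with the replicate block). PPARA, the receptor that drives fatty acid burning, had edgeR adjusted p of 0.0918 and, with the block, 0.0373 (13.4 ± 3.30 against 7.92 ± 2.78 CPM). PPARG went the other way, at 192 ± 64.3 against 326 ± 56.2 CPM (log2 fold change -0.77). It was lower in all 5 pairs, with edgeR adjusted p of 0.0592 and, with the block, 0.0609. The depots did not overlap, though the gap was narrow, from 267 CPM in intramuscular to 270 CPM in subcutaneous replicate 4.

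The authors' deposited table, from DESeq2, lists the same 6 members at an adjusted p under 0.05, where 20.0% of its genes are listed so. In the authors' deposited table ACSL3 has a log2 fold change of 0.99 and a DESeq2 adjusted p of 0.00176, and is filed as Non-Significant. The other 5, with log2 fold changes of 1.12 or more in size, are filed as Upregulated or Downregulated.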

How the data were processed

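Bulk RNA-seq of 10 adipose libraries was used, grouped by their titles. RNA was primed with random hexamers and its second strand made with dUTP, per the labels' protocols. Trimmomatic 0.39, STAR 2.7.11a, DESeq2 1.42.0 and featureCounts 2.0.2 are named in the submitters' processing notes. Of the build and the strand setting nothing is stated in those sources. Coordinates are therefore printed as deposited, and how reads of overlapping genes or near-identical copies were split is unknown. The authors deposited raw counts per gene, their mean of the raw counts per depot and a base mean (size-factor-scaled signal). A deposited log2 fold change with its error and test score, and deposited p-values, were also given.

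From the counts, edgeR 4.0.16 (R 4.3.3) gave TMM-scaled CPM and the two-sided quasi-likelihood test without a block (filterByExpr, 12521 genes kept, 153 removed, prior count 2, Benjamini-Hochberg adjustment, threshold 0.05). DESeq2 1.42.0, limma 3.58.1 (voom), other scalings, no filter, a replicate block and left-out libraries were alternatives. Ratios within a library used counts plus 2. Levels per gene length used the deposited lengths. No other column of sample values was found. The test was also run on 7 simulations of 5 against 5 libraries, with 192 to 198 changed genes among 12371 to 12390 and no heifer effect. There 28.0 to 41.2% of 2-fold and 80.8 to 89.8% of 4-fold changes were called, and 1.71 to 7.94% of calls were unchanged genes. The data themselves gave calls for 12.2% of genes and were paired, so these shares need not hold for them.

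Per the design text, each heifer gave tissue of both depots. Same-numbered libraries deviated together (correlations across genes of 0.102, 0.181, 0.176, 0.161 and 0.237), so numbers were taken as animals. The members, lists and tests were chosen with earlier results of these data known. Named genes were the members, pathway genes past the threshold and the 3 nearest patterns of FABP3, FABP4, FABP5 and CD36. ACSS2, PPARA, PPARG, CAV1, SLC27A3, FABP6 and FABP7 were named after their values were seen, as were the ratios to the adipocyte list and of ACSL5 to ACSL3.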

Additional observations from a re-analysis of the deposited data

Results flagged for a closer look

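In 60 groups of 5 libraries, 4 held a library far from the others by Dixon's test, close to the 1 in 20 that chance flags. SLC27A1 stood at 135 CPM in intramuscular replicate 1, with the next library at 66.9 CPM. ACSL4 stood at 86.6 CPM in subcutaneous replicate 4, with the next at 28.5 CPM. PMP2 stood at 0.587 CPM in subcutaneous replicate 4, on 10 counts, with the next at 0.129 CPM. The summed adipocyte list stood at 44099 CPM in subcutaneous replicate 5, with the next at 29878 CPM.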

How the results depend on the processing

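Of 270 refits of 15 named genes (10 members and 5 others, 18 settings each), 228 kept direction and side of the threshold, 41 kept the direction and lost the call, and 1 reversed (ACSL1, 0.04, against -0.98 to 0.04 over all single libraries left out: 0.0368 without subcutaneous replicate 4). With intramuscular replicates 1 and 3 left out, 302 genes were higher and 67 lower, members 1 and 0, and pathway genes 1 and 0 (6 and 6 at an unadjusted p under 0.05 by edgeR), where fewer libraries were tested. Genes higher and lower numbered 843 and 685 with all libraries, 1369 and 1171 by DESeq2, and 495 to 1009 and 262 to 892 with 1 library left out. With plain library totals 1144 genes were higher and 330 lower, members 3 and 2 (ACSL5 lost), and the median log2 fold change of all genes moved from -0.04 to 0.13. Pathway genes lower numbered 6 by DESeq2, 1 by limma voom, 0 with plain totals and 0 to 3 with 1 library left out; the cause was not tested. With the replicate block 3 members were higher and 3 lower, as without it, 1018 and 870 of all genes (15.1% in all), and 4 and 3 pathway genes; ACSS2 and PPARA were called there, and no member's call changed. With 1 library left out, the mean log2 ratio of FABP3 to the muscle list was -5.12 to -4.99 in intramuscular fat. In subcutaneous fat that mean was -4.12 to -3.64. The intramuscular log2 ratio of FABP3 to FABP4 went from -6.04 to -6.65 without replicate 1, which also widens the SD of that ratio. P-values reflect 5 animals sampled once per depot, and SLC27A4 and subcutaneous FABP3 are limited by low counts.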
